A study of Mus musculus with 6 samples.

Results

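Fras1, Ngfr, Sv2b, AF067061, Etl4 and Igfn1 are 6 mouse genes, out of 16511 in the deposited gene table, whose RNA was close to absent in the B cell libraries labelled WT and clearly present in those labelled KO. They were chosen by their counts under both labels, near 0 in every library labelled WT and clear in every library labelled KO, so their difference between the labels is given below as a description and is not tested. RNA was sequenced from B lymphocytes that had been enriched from mouse spleen with magnetic beads that hold back other cells, with 3 libraries titled GPR40-WT and 3 titled GPR40-KO. GPR40 is the receptor for free fatty acids encoded by Ffar1; the text of the series writes GPR40-BKO for the second genotype. The labels give no strain, age, sex, allele design or origin of the replicates from separate animals, and each p-value below therefore reflects only how far the libraries scatter, which may in part be technical scatter. The libraries are called WT1 to WT3 and KO1 to KO3 below, by label and replicate number.

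Ffar1, the targeted gene, was at 0 counts in WT1, WT2 and WT3 and at 273, 392 and 304 counts in KO1, KO2 and KO3, which is the reverse of the labels, so each direction below is that of the label on the library and not of a verified genotype. All 10 B cell markers, among them Cd79a and Ms4a1, were detected in every library, and their summed level was 5400 to 8060 CPM (counts scaled to library size) in the libraries labelled WT and 10900 to 12000 CPM in those labelled KO. KO3 stood apart: 18 skeletal muscle markers summed to 1340 CPM there and to between 6.08 and 13.7 CPM in the other libraries. Markers of fibroblasts and reticular stroma summed to 536 CPM in KO3 and to between 3.13 and 34.0 CPM elsewhere. Neutrophil markers summed to 755 to 6000 CPM in the libraries labelled WT, with the highest sum in WT1, and to 125 to 275 CPM in those labelled KO. Depth was even, between 14907079 and 15461409 counts per library.

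The 6 genes have no pathway in common. Fras1 is a very large protein of the basement membrane beneath epithelia, where it is held in a complex with the related Frem proteins, and its loss in mice causes skin blistering before birth. Ngfr is the p75 neurotrophin receptor, a member of the TNF receptor superfamily that binds nerve growth factor and its relatives, and with sortilin their uncleaved precursors. Sv2b is a transporter-like membrane glycoprotein of synaptic and endocrine vesicles. Etl4, also called Skt, is a coiled-coil protein needed for normal intervertebral discs in the mouse. Igfn1 is a skeletal muscle protein built of immunoglobulin-like and fibronectin domains that was found through its binding to the muscle protein KY. AF067061 is a small gene whose transcript resembles Tcstv1 and Tcstv3, which are known from the cleavage-stage mouse embryo; no role of its own is given here.

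The genes lie on 6 different chromosomes (GRCm38, the build also called mm10, RefSeq coordinates). Fras1 covers chr5:96373777-96784733 on the plus strand and has up to 74 exons. Ngfr lies at chr11:95568818-95587698 on the minus strand with 6 exons. Sv2b lies at chr7:75114894-75309262 on the minus strand, on the chromosome of Ffar1. AF067061 takes up chr13:120263095-120264517 on the plus strand and has 2 exons. Etl4 spans 900329 bases at chr2:19910207-20810535 on the plus strand, and Igfn1 lies at chr1:135953205-136040925 on the minus strand. Gene length thus runs from 1423 to 900329 bases.

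Promoter sequence was available for 5 of the 6 genes, from RefSeq (GRCm38.p6), as 250 bases before to 50 after an annotated start. The promoters of 3 genes are shown because their annotated start lies at or near the start of the transcript that held most of their reads. They are written 5′ to 3′ on the strand of the gene. Capitals mark matches, on either strand, to any of 10 motifs: the TATA box TATAAA, the CCAAT box, the GC box GGGCGG, the octamer ATGCAAAT, the AP-1 motif TGANTCA, the CRE TGACGTCA, the STAT motif TTCNNNGAA, the ETS motif GAGGAAG, the E-box CACGTG and the NF-kB motif.
Ngfr, chr11:95587649-95587948, minus strand: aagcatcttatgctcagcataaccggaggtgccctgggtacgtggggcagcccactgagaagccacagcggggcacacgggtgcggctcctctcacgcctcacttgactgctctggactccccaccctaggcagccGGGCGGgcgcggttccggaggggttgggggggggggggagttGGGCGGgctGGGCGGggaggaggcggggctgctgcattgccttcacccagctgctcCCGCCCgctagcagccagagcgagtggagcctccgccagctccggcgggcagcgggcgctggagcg
Sv2b, chr7:75309213-75309512, minus strand: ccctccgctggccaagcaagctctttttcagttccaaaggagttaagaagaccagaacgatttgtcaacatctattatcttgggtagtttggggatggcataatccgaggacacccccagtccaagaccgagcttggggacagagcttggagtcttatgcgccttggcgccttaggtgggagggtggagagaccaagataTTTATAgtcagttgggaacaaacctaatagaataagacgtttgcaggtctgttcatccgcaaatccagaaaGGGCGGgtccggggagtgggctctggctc
AF067061, chr13:120262845-120263144, plus strand: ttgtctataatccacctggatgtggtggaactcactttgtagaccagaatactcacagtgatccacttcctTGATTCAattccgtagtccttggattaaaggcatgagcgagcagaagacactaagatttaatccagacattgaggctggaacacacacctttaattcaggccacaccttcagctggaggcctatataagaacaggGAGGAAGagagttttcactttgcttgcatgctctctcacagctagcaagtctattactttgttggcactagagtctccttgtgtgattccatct

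These 3 promoters did not look alike. That of Ngfr held 4 GC boxes, no other motif of the 10 and 23 CpG dinucleotides, and 78.5% of the 32851 RefSeq promoters of that length had fewer. That of Sv2b held 1 TATAAA, 1 GC box and 10 CpG. That of AF067061 held 1 AP-1 and 1 ETS match and 2 CpG, and 14.1% of promoters had fewer CpG than it. The GC box occurs in 35.7%, TATAAA in 13.6%, the ETS motif in 13.6% and the AP-1 motif in 7.81% of all promoters. No motif of the 10 was shared by all 3. The Igfn1 promoter, which is not shown, held none of them. Its start, at 136006342, lies within the RefSeq span of the gene, and no start was available for the leading transcript of Igfn1. It may thus not be the promoter of the reads counted here. A match is a description of the letters and not of a bound factor. Only the letters given were sought, so a variant such as tatataa, which the AF067061 promoter holds, was not counted as a TATA box.

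Fras1 showed the widest gap between the labels. It had 0, 0 and 1 counts in WT1, WT2 and WT3 and 191, 159 and 91 counts in KO1, KO2 and KO3. The groups did not overlap, and KO3 was the lowest of its group. On the CPM scale the level was 9.85 ± 3.44 (SD, n = 3) under the KO label and 0.0220 ± 0.0381 under the WT label. With a single count on one side the pooled ratio was 451, with a 95% counting interval of 80.5 to 17853 (exact, and covering counting error only).

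Ngfr was the most even of the 6. Its counts were 2, 6 and 2 in the libraries labelled WT and 157, 148 and 171 in KO1, KO2 and KO3. The 3 libraries labelled KO differed by 1.16 times at most, and all of them lay far above the highest library labelled WT. The level was 10.6 ± 0.804 CPM against 0.219 ± 0.152 CPM (SD, n = 3 each), a pooled ratio of 48.7 (26.2 to 102).

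Sv2b was low but never at 0 in the libraries labelled WT. It had 3, 4 and 4 counts there and 126, 68 and 111 in KO1, KO2 and KO3. KO2 was the low library of its group here, whereas KO3 was for Fras1. Its level went from 0.240 ± 0.0400 to 6.82 ± 2.05 CPM, a pooled ratio of 28.4 (15.6 to 57.4).

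AF067061 had the fewest counts of the 6 over the libraries labelled KO. It had 1, 0 and 1 counts in the libraries labelled WT and 39, 23 and 30 in KO1, KO2 and KO3. The groups did not overlap, and the pooled ratio was 47.0 with a wide counting interval (12.7 to 394). At transcript level it is nearly identical to other genes: 5 genes aligned to it at 95% identity or more over at least 100 bases. The closest with a value here, Gm21761 and Gm20767, had 2, 0 and 0 and 0, 2 and 0 counts in the libraries labelled WT, and 7, 6 and 0 and 3, 1 and 0 in those labelled KO. The other 3, with Tcstv1 and Tcstv3 among them, are not analysed here. Reads can be divided among such copies, so the level of AF067061 is uncertain.

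Etl4 had the most counts in a single library labelled WT. It was at 6, 9 and 0 counts in WT1, WT2 and WT3 and at 101, 96 and 75 in KO1, KO2 and KO3. Its libraries labelled KO lay close together, within 1.35 times of each other. The level was 0.327 ± 0.300 CPM against 6.07 ± 0.931 CPM, the smallest pooled ratio of the 6 at 18.5 (11.0 to 33.6).

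Igfn1 was the least even. It had 4, 0 and 0 counts in the libraries labelled WT and 65, 40 and 15 in KO1, KO2 and KO3, a range of 4.36 times within the KO label on the CPM scale. The lowest of those 3 was KO3, the library in which other skeletal muscle genes were far above all others. The level was 0.0863 ± 0.149 CPM against 2.68 ± 1.69 CPM, a pooled ratio of 30.7 (11.7 to 114).

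**Figure D1:**
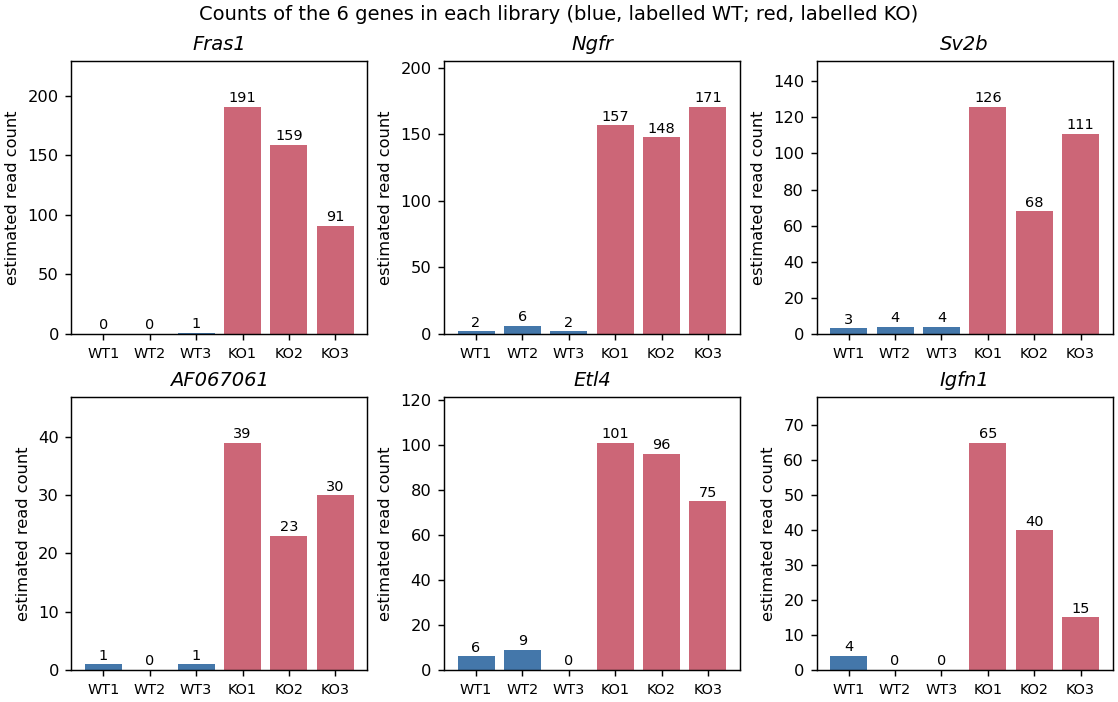
Estimated read counts (vertical axis, a separate scale in each panel) of the 6 genes in each of the 6 libraries, blue for those labelled WT and red for those labelled KO, with each count printed above its bar. No gene's groups overlap; the highest count under the WT label is 9 (Etl4, WT2) and the lowest under the KO label is 15 (Igfn1, KO3).

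Across all 6 genes, 43 counts fell in the libraries labelled WT and 1706 in those labelled KO. Of the 18 values under the WT label, 6 were 0 and 12 were at or below 3 counts, which is as much as a true level can be behind a count of 0 (0.194 to 0.202 CPM). All 6 passed the filter on low counts. Each did so through the libraries labelled KO, and all 6 were called higher under the KO label by edgeR's quasi-likelihood test, where 4.55% of the 12234 tested genes were; the rule used this contrast, and nothing is read from the count. Groups without overlap and higher under the KO label were found for 17.5% of tested genes, and without overlap in either direction for 33.4%. KO1 was the highest of its group for 5 of the 6 genes, and KO3 for Ngfr. The lowest was KO3 for Fras1, Etl4 and Igfn1, and KO2 for Ngfr, Sv2b and AF067061.

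Scaling to transcript length changed the order of the 6. By TPM, which the authors scaled to length, AF067061 and Ngfr were the highest in the libraries labelled KO, at 5.67 ± 1.48 and 5.61 ± 0.225 TPM (SD, n = 3), and did not differ beyond their spread. Sv2b followed at 2.14 ± 0.616 TPM, with no library as high as the lowest of Ngfr. Etl4 at 1.52 ± 0.225 and Fras1 at 1.22 ± 0.442 TPM overlapped each other, and Etl4 also overlapped Sv2b. Igfn1 was the lowest at 0.610 ± 0.364 TPM, with its highest libraries inside the range of Fras1. By CPM, Ngfr and Fras1 led and AF067061 was last. All 6 were low for these cells: their mean TPM in the libraries labelled KO was above that of 4.96% (Igfn1) to 25.6% (AF067061) of tested genes, whose median was 20.5 TPM. Ffar1, for comparison, was at 58.8 ± 12.4 TPM.

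**Figure D2:**
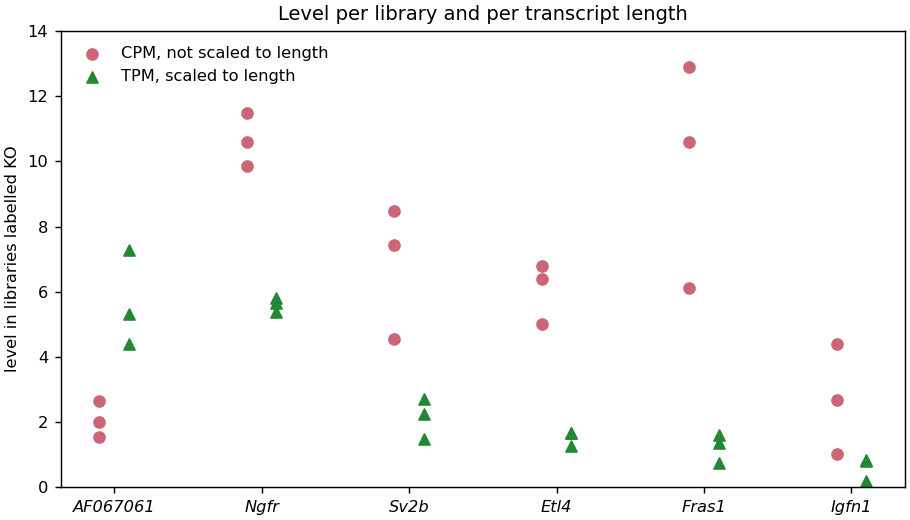
Level of the 6 genes in KO1, KO2 and KO3 (1 point per library), as CPM, which is not scaled to length (red circles), and as TPM, which is (green triangles), on 1 linear axis, ordered by mean TPM. AF067061 is lowest by mean CPM (2.06) and highest by mean TPM (5.67).

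Of the 5 genes with more than 1 listed transcript, Sv2b was the one whose leading transcript was the same in KO1, KO2 and KO3. Ngfr has 1 listed transcript. Of the reads of Sv2b, 94.1% in the libraries labelled KO went to the transcript NM_153579, at 125.66, 50.39 and 111.0 estimated counts in KO1, KO2 and KO3, and NM_001109753, which starts elsewhere in the gene, had 0.34, 17.61 and 0 counts. Few as they were, the reads of Sv2b in WT1 and WT3, at 3 and 4 counts, were all assigned to NM_001109753, while NM_153579 had 3 counts in WT2. AF067061 divided its reads between both its transcripts, with 32.64, 7.24 and 18.17 counts for NM_199060 and 6.36, 15.76 and 11.83 for NM_001310627, which led in KO2.

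For Fras1 the leading transcript changed with the library. XM_017320846 had 106.84, 100.29 and 0.14 counts in KO1, KO2 and KO3, and XM_017320847 had 8.19, 0 and 84.52. The annotated reference transcript NM_175473 had 75.97, 58.71 and 6.34. KO3, the library with muscle and stromal markers, was thus also the one with another Fras1 transcript; whether they are tied was not tested. All 65 reads of Igfn1 in KO1 were assigned to XM_017319938, which had 0 counts in KO2 and KO3, where XM_036163957 led with 28.28 and 14.5 counts. The 4 reads of Igfn1 in WT1 went to a different transcript again, XM_006529440, which had 0.5 counts in KO3 and none in KO1 or KO2. Etl4 spread its reads over 14 transcripts with counts under the KO label, of which 1, NM_001177631, was present in all 3 libraries, with 63.15, 16.17 and 17.37 counts. It led in KO1, whereas XM_006497424 led in KO2 with 42.8 counts and XM_036160131 in KO3 with 23.35. Counts of this size are estimates shared out among overlapping transcripts, so a change of transcript between libraries is not separable from the uncertainty of that step.

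**Figure D3:**
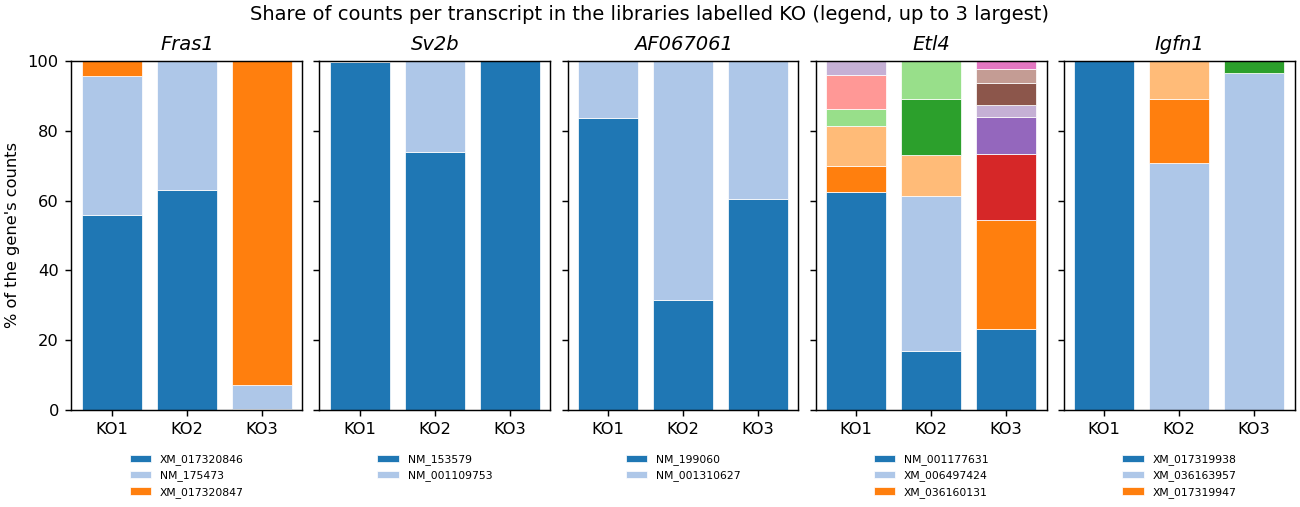
Share of each gene's estimated counts (percent, vertical axis) assigned to each transcript in KO1, KO2 and KO3, for the 5 genes with more than 1 listed transcript, each colour being 1 transcript and the legend naming up to 3. Sv2b keeps 1 leading transcript in all 3 libraries, whereas the leading transcript of Fras1, Igfn1, AF067061 and Etl4 is not the same in all 3.

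Genes beside the 6 were called about as often as tested genes in general. Of 34 tested genes that were the nearest, up to 3 on either side, 1 was higher and 3 were lower under the KO label by edgeR's quasi-likelihood test, 30 did not pass, and the median log2 fold change was 0.10, against 0.01 over all tested genes. Among all tested genes 9.37% were called, 4.55% higher and 4.81% lower, so 4 of 34 is near the share over all genes. With the replicate number as a block in the fit, 7 neighbours were called, 3 higher and 4 lower. The labels do not state that same-numbered libraries are paired, and that pairing was taken from these same data. The block raised the calls over all genes from 1146 to 2535. Blocked p-values here and below therefore hold only if the pairing is real.

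Next to Fras1, the annexin Anxa3 lies 8652 bases away and had 1406, 827 and 1218 counts in WT1, WT2 and WT3 and 627, 433 and 577 in KO1, KO2 and KO3. It fell from 75.3 ± 18.9 to 36.6 ± 6.95 CPM, opposite to Fras1 (log2 fold change -1.04 ± 0.22, SE, edgeR adjusted p = 0.0372). It was not called without WT1, WT3 or any 1 of the libraries labelled KO (edgeR adjusted p up to 0.111). The kinase gene Bmp2k, further along on that side, fell by 0.71 on the log2 scale (edgeR adjusted p = 0.00695) and was called in each fit without 1 library. On the other side, the mitochondrial ribosomal gene Mrpl1 had 16.4 ± 0.939 and 18.4 ± 3.58 CPM and did not pass (edgeR adjusted p = 0.577). Monocyte and macrophage markers, summed over 12 genes, were at 2290 to 5800 CPM under the WT label and 1010 to 1850 CPM under the KO label; their part in the fall of Anxa3 was not tested.

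Otud1, a deubiquitinase gene 248928 bases from Etl4, was the neighbour that rose. It had 488, 591 and 481 counts under the WT label and 1238, 1145 and 985 under the KO label (log2 fold change 1.14 ± 0.13, edgeR adjusted p = 0.00207), and was called in each fit without 1 library. Arhgap21, a GTPase-activating protein gene on the other side of Etl4 and closer to it, had 43.7 ± 10.5 and 33.6 ± 2.12 CPM and did not pass (edgeR adjusted p = 0.190). Slco3a1, an organic anion transporter gene beside Sv2b, fell from 11.4 ± 5.67 to 3.39 ± 0.683 CPM (log2 fold change -1.75 ± 0.40, edgeR adjusted p = 0.0355) and was not called without WT1 or any 1 of the libraries labelled KO (edgeR adjusted p up to 0.139). On the other side of Sv2b, the anchoring protein gene Akap13 had 1010 ± 22.7 and 916 ± 53.0 CPM (edgeR adjusted p = 0.299).

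Neither tested neighbour next to Ngfr passed, Spop with a log2 fold change of 0.08 ± 0.08 and Phb with 0.11 ± 0.16 (edgeR adjusted p = 0.532 and 0.715). Beside AF067061, the zinc finger gene Zfp131 and BC147527 had 0.12 ± 0.13 and 0.59 ± 0.44 (edgeR adjusted p = 0.589 and 0.431). Tmem9, a lysosomal membrane protein gene, lies within the RefSeq span of Igfn1 on the opposite strand. It had 111, 143 and 158 counts in WT1, WT2 and WT3, where Igfn1 had 4, 0 and 0, and 203, 140 and 200 under the KO label (edgeR adjusted p = 0.262). In the GENCODE annotation Igfn1 reaches only to 136006342, and Tmem9 begins at 136008219 in RefSeq. No step that keeps the strand is stated. Reads from bases that lie in exons on both strands therefore cannot be told apart, whereas reads from other exons can. This limit also covers any exon bases shared with the annotated antisense genes within Fras1 and Etl4. It likewise covers those shared with 1500012K07Rik, which overlaps the start of Sv2b. Tnnt2, the cardiac troponin T gene on the other side of Igfn1, had 25, 5 and 16 counts under the WT label and 2, 12 and 15 under the KO label. A pair of neighbours singled out after their values were seen were low under the WT label without passing. Agbl1, near Sv2b, had 1, 6 and 1 against 16, 16 and 18 counts (edgeR adjusted p = 0.0794), which lies within the limits of the 6 genes themselves, and Cacna1s, a muscle calcium channel gene beside Igfn1, had 8, 3 and 5 against 15, 19 and 181 (edgeR adjusted p = 0.0880, and 0.0446 with the replicate block).

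**Figure D4:**
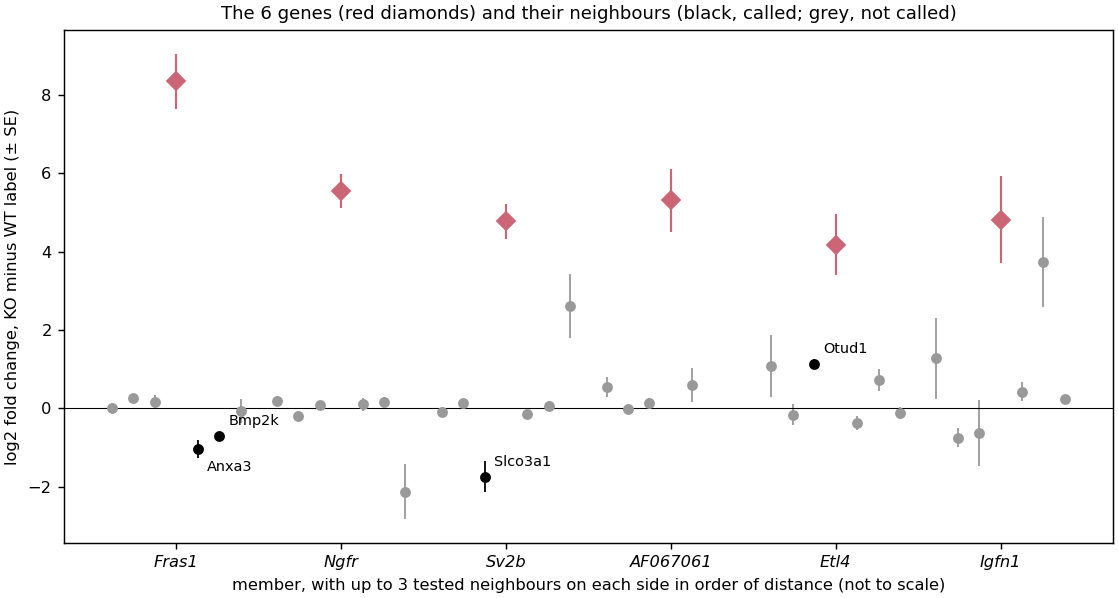
Log2 fold change of the KO against the WT label (± SE, edgeR) for the 6 genes (red diamonds) and up to 3 tested neighbours on each side in order of distance, which is not to scale (black where called, grey where not). The members lie between 4.18 (Etl4) and 8.35 (Fras1), and the called neighbours between -1.75 (Slco3a1) and 1.14 (Otud1).

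None of the tested partners of Fras1 was called. Of the 8 tested genes of its complex and of the integrins and proteases around it, 0 were called by edgeR's quasi-likelihood test in either direction, where 4.55% of all tested genes were called higher and 4.81% lower, and the median log2 fold change was -0.33. At an unadjusted p under 0.05 there were 2, and DESeq2 called 1 lower. So few genes say little about the list. Frem2, which anchors Fras1 in the basement membrane, had 14, 12 and 1 counts under the WT label and 21, 10 and 13 under the KO label (edgeR adjusted p = 0.606). Frem1 was at 0 in 5 libraries and at 31 counts in KO3. Itgb1, the integrin beta chain common to most matrix receptors, had a log2 fold change of -0.74 that did not pass (edgeR adjusted p = 0.0812) and passed with the replicate block (blocked edgeR adjusted p = 0.00111), as did Itgav. Epithelial markers differed among the libraries labelled KO. Krt8, a keratin of simple epithelia, had 1, 0 and 0 counts under the WT label and 54, 2 and 286 in KO1, KO2 and KO3, where Fras1 had 191, 159 and 91. The 9 measured epithelial and mesothelial markers summed to 5.02 to 11.0 CPM under the WT label and to 24.9, 8.45 and 101 CPM in KO1, KO2 and KO3. Krt14 was at 0 outside KO3. The part of such cells in the level of Fras1 was not tested.

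Among other genes of neurotrophin signalling, Sorl1 was the one called. Of 20 tested ligands, receptors and p75 partners, 1 rose, 0 fell and 19 did not pass, and their median log2 fold change was -0.05. The 1 of 20 higher is close to the 4.55% over all tested genes. The one that rose was Sorl1, a sorting receptor related to sortilin, with 6096, 4277 and 3712 counts under the WT label and 12644, 14393 and 11233 under the KO label (log2 fold change 1.48 ± 0.19, edgeR adjusted p = 0.00616), called in each fit without 1 library. Sortilin itself, Sort1, had a log2 fold change of -1.43 that did not pass (edgeR adjusted p = 0.119) and that passed with the replicate block (blocked edgeR adjusted p = 7.3e-05). Traf6 and Adam17 were also called lower with the block (blocked edgeR adjusted p = 0.0472 and 0.0490). Monocyte and macrophage markers were lower under the KO label too, and their part in the level of Sort1 was not tested. Of the ligands and tyrosine kinase receptors with a value here, Bdnf was at 0 outside KO3, Ntrk2 was at 0 to 2 counts outside KO3 and 27 in it, and Ntf5 and Ntrk3 were at 0 in several libraries. The p75 partner Rtn4r, singled out after its values were seen, was too low to be tested. It had 12, 6 and 12 counts under the WT label and 0, 0 and 0 under the KO label, the reverse of Ngfr.

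Ngfr also belongs to the TNF receptor superfamily, of which 18 other members were tested. Of these 2 rose, 3 fell and 13 did not pass, and their log2 fold changes had a median of -0.90. Being called was thus more frequent here, at 5 of 18, than among all tested genes, at 9.37%. An unadjusted edgeR p under 0.05 was reached by 13 of the 18, the 5 called ones included. By DESeq2, 2 of the 18 were higher and 9 lower. Myeloid markers were also lower in the libraries labelled KO: the mean summed level under the KO label was 0.336 times that under the WT label for monocyte and macrophage markers and 0.0697 times for neutrophil markers. Of these lists 3 of 12 and 2 of 12 genes were called lower, and their part in the values of the receptors was not tested. Tnfrsf13b, the receptor TACI, rose from 112 ± 23.6 to 352 ± 26.0 CPM (log2 fold change 1.65 ± 0.15, edgeR adjusted p = 8.19e-04). Tnfrsf13c, the BAFF receptor, rose by 1.32 ± 0.09 on the log2 scale. Tnfrsf26, a mouse receptor of this family, fell from 150 ± 16.1 to 55.7 ± 5.04 CPM (edgeR adjusted p = 3.53e-04). These 3 were called in each fit without 1 library, whereas Tnfrsf1b and Tnfrsf14, which fell by 1.15 and 0.40, each were not called without 4 or more of the 6 (edgeR adjusted p up to 0.139). With the replicate block, Cd40 was also called higher, and Cd27, Ltbr, Tnfrsf1a, Tnfrsf9, Tnfrsf11a and Tnfrsf21 lower (blocked edgeR adjusted p between 5.9e-05 and 0.0413). Ngfr had far fewer counts than any of these 5, at 148 to 171 per library labelled KO. Markers of cells known for Ngfr were measured as well. For follicular dendritic cells, 8 of 10 markers had a value. They summed to 135 to 152 CPM under the WT label and 111 to 139 CPM under the KO label. Most of that sum was Cr1l, at 87.3 ± 3.46 and 89.0 ± 9.97 CPM. Bst1, the 1 of 4 tested that was called, fell from 25.5 ± 11.1 to 4.67 ± 0.865 CPM (edgeR adjusted p = 0.00901). Madcam1 was at 0 or 1 count in each library. Coch, Enpp2 and Cxcl13 did not pass the filter on low counts. Coch had 47, 34 and 7 counts under the WT label and 6, 10 and 2 under the KO label. Enpp2 had 25, 8 and 8 against 3, 0 and 89, and Cxcl13 had 6, 1 and 4 against 0, 0 and 17. The sum does not show these differences. For Schwann cells and nerve, 9 of 10 had a value and summed to 124 to 168 and 125 to 137 CPM. Most of that sum was Mbp, at 102 ± 18.9 and 86.5 ± 12.4 CPM, so each of these sums mainly follows 1 gene. Sox10 and Cdh19 were at 0 outside KO3.

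Among the vesicle genes around Sv2b, more were called lower than higher. Of 25 tested, 1 rose, 4 fell and 20 did not pass, with a median of -0.29. The 5 of 25 called is above the 9.37% over all tested genes. Monocyte, macrophage and neutrophil markers were lower under the KO label, and their part in the values of these vesicle genes was not tested. At an unadjusted p under 0.05 there were 14 of the 25. DESeq2 called 2 of the 25 higher and 8 lower, where it called 855 higher and 1391 lower of all 12234 tested. Vamp1, a SNARE of the vesicle membrane, rose from 83.3 ± 8.79 to 113 ± 8.48 CPM (edgeR adjusted p = 0.0340). Cplx2, a complexin that clamps SNARE complexes, fell from 84.8 ± 14.9 to 25.3 ± 8.26 CPM (log2 fold change -1.75 ± 0.27, edgeR adjusted p = 0.0167). Stx3, a plasma membrane SNARE, and Syngr2, a vesicle membrane protein, fell by 1.81 and 0.49 on the log2 scale. None of these 4 was called in every fit without 1 library (edgeR adjusted p up to 0.169). With the replicate block, Snap29 was also called higher, and Snap23, Rab3d and Vamp8 lower (blocked edgeR adjusted p between 0.0149 and 0.0431). The relatives of Sv2b did not show its pattern: Sv2a had 69, 39 and 55 counts under the WT label and 98, 101 and 102 under the KO label without passing (edgeR adjusted p = 0.0851), and Sv2c was at 0 to 13 counts.

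For Igfn1, 11 tested muscle proteins of its kind and its known partners had 0 calls in either direction by edgeR's quasi-likelihood test, with a median log2 fold change of 1.23. At an unadjusted p under 0.05 there were 2, and DESeq2 called 1 higher. In 9 of the 11 the highest CPM was that of KO3. Neb, which sets the length of thin filaments, had 5, 3 and 7 counts under the WT label and 17, 16 and 410 in KO1, KO2 and KO3, and Ttn, the giant spring protein of the sarcomere, had 59, 57 and 56 against 53, 56 and 717. Mybpc2, a myosin-binding protein of fast muscle, had 109, 160 and 173 against 248, 271 and 674, higher in each library labelled KO, and Palld, an actin-bundling protein, had 186, 99 and 215 against 88, 33 and 146. With the replicate block Neb and Mybpc2 were called higher and Palld lower (blocked edgeR adjusted p = 0.0364, 0.00547 and 0.0238). Igfn1 had 65, 40 and 15 counts in KO1, KO2 and KO3. The 18 muscle markers summed to 6.08 to 9.66 CPM under the WT label and to 11.6, 13.7 and 1340 CPM in KO1, KO2 and KO3. Of these, Myh1, Myh2, Myh4, Pvalb, Myl1 and Mb were at 0 outside KO3, as was the Igfn1 partner Ky, whereas Ryr1 and Klhl41 were called higher and were above every library labelled WT in KO1 and KO2 too. Ryr1 had 15, 6 and 3 against 65, 71 and 379 counts (edgeR adjusted p = 0.0486). It had the most counts of the 18 in KO1 and KO2, so the sums there depend on it in large part. Tnnt3, the next, had 43 and 63 counts there, against 33, 30 and 46 under the WT label. Acta1 had 0 and 4 counts in KO1 and KO2, and Ckm 4 and 3. The part of muscle RNA in the level of Igfn1 was not tested. Of the relatives of Etl4 and the disc and notochord genes, 2 of 12 were tested and 0 called by edgeR or DESeq2, with 1 at an unadjusted p under 0.05. These were Sox5, with 42, 65 and 38 against 90, 84 and 87 counts (edgeR adjusted p = 0.111), and Sox6. With the replicate block, 30 of the 84 genes tested over all 6 lists were called, 8 higher and 22 lower, against 11 without it, 4 higher and 7 lower.

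**Figure D5:**
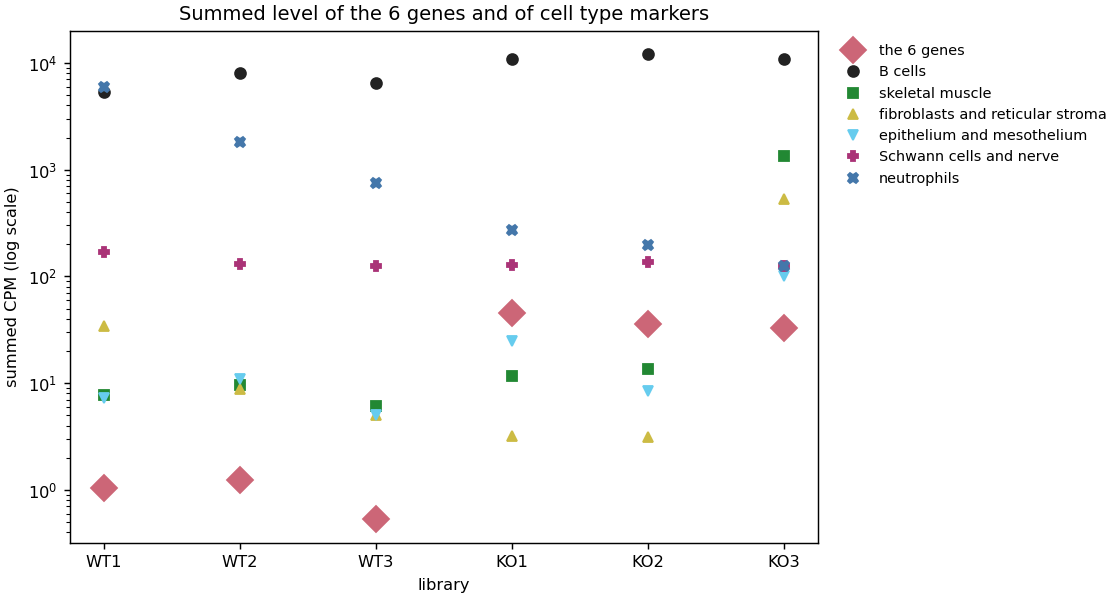
Summed CPM (log scale) in each library of the 6 genes (red diamonds) and of 6 lists of cell type markers. Muscle and stromal markers are high in KO3 alone (1340 and 536 CPM), whereas the 6 genes sum to 45.7, 35.5 and 33.0 CPM in KO1, KO2 and KO3.

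The summed level of the 6 genes was 1.04, 1.25 and 0.528 CPM in WT1, WT2 and WT3 and 45.7, 35.5 and 33.0 CPM in KO1, KO2 and KO3. The choice of the genes set this difference in every library, KO3 included, so it bears on nothing else. The summed level of B cell markers was 1.70 times as high under the KO label as under the WT label. In RNA from a mixture, more cells of a type and more RNA per cell cannot be told apart.

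Other genes of the table had a like pattern. At the limits the 6 genes themselves span, up to 9 counts in each library labelled WT and at least 15 in each labelled KO, there were 21 genes, the 6 included; this count was added after the data were seen. With at most 3 counts in each library labelled WT and at least 10 in each labelled KO, 10 of the 16511 genes qualified, with Fras1 and AF067061 among them. Just outside these limits, Igfn1 and Sv2b had up to 4 counts under the WT label, Ngfr up to 6 and Etl4 up to 9. Besides Ffar1, the named others were Klhl41, a muscle protein of the kelch family, Wipf3, an actin regulator, Dusp14, a phosphatase of MAP kinases, Neurod4, a neuronal transcription factor, and Npr3, the clearance receptor of natriuretic peptides. Wipf3 was at 0 in all 3 libraries labelled WT and at 28, 19 and 28 counts in KO1, KO2 and KO3. Neurod4 had 0, 1 and 0 against 14, 25 and 11, and Npr3 had 1, 1 and 1 against 12, 13 and 15. In Klhl41 and Dusp14 the counts were highest in KO3, at 100 and 37, where KO1 and KO2 had 15 and 14, and 12 and 11. The reverse pattern, near 0 under the KO label, was found for 9 genes.

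The genes that followed the mean profile of the 6 most closely over the 6 libraries were mostly well expressed under both labels. By Pearson correlation of log2(CPM + 0.5) with the mean standardised profile, they were Ptpn18 (r = 1.00 after rounding), Slc44a2, Map7, Ephx1 and 1810046K07Rik, with r of 0.998 for each of the last 4. The correlation is a description over 6 libraries that share depth and label, and it reads the shape of a profile and not its size. The rule set the step between the labels in that mean profile. A gene with an even difference between the labels therefore scores high, and nothing further is read from r. Ptpn18 had 434, 426 and 419 counts under the WT label and 554, 537 and 523 under the KO label. It was not called (log2 fold change 0.37, edgeR adjusted p = 0.0554). Ephx1, the microsomal epoxide hydrolase, had 1137, 1201 and 1031 counts under the WT label and 4275, 3931 and 3546 under the KO label. Slc44a2, a choline transporter-like protein, had 3921, 3697 and 3543 against 7511, 7174 and 6898. 1810046K07Rik was the one near absence, with 0 in each library labelled WT and 135, 85 and 92 in KO1, KO2 and KO3.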

How the data were processed

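The authors deposited, per gene and per transcript, estimated counts not scaled to depth, TPM and FPKM, per the file headers. Tools listed in the submitters' processing notes, with no role attached, were RSEM 1.3.1, Bowtie2 2.2.5 and HISAT2 2.0.4, with the mm10 build. Estimated counts (5.87% of gene values not whole) were rounded; FPKM was read but gives no result, and 12 further columns of values per library were not used. CPM uses TMM factors. The filter was edgeR's filterByExpr by group (12234 of 16511 genes), and the test was edgeR 4.0.16, quasi-likelihood with robust dispersion, on the label alone, Benjamini-Hochberg over all tested genes, threshold 0.05. DESeq2 1.42.0 was an alternative. Same-numbered libraries deviated together from their group means (r = 0.156, 0.407 and 0.197), and the labels number the replicates 1 to 3, so a fit with that number as a block was run; blocked p-values stand beside results whose call they alter. The pairing comes from the data. The procedure was tested on simulated counts. Of the gene identifiers, 16128 matched RefSeq. Near-identical transcripts were sought with megablast in GENCODE transcripts. The members and lists were chosen with earlier results of these data known. Text names the 6 genes, Ffar1, the nearest neighbour on each side and any called neighbour, up to 10 genes of the same pattern, 5 genes of like profile and up to 4 called genes per list; other names were chosen after their values were seen, and some genes of the lists are counted but not reported here by name. Intervals are exact at 95%, with a floor of 3 counts.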

Additional observations from a re-analysis of the deposited data

How the results depend on the processing

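Over all genes, 1146 were called; DESeq2's Wald test called 2246 (855 higher and 1391 lower under the KO label) and the replicate block 2535 (974 higher and 1561 lower), and leaving out 1 library gave 264 to 2030 (704, 2030 and 528 without WT1, WT2 and WT3, and 380, 264 and 623 without KO1, KO2 and KO3). For the 84 genes of the lists the counts were 11, then 26 and 30, and 4 to 27. For the 34 neighbours they were 4, then 7 and 7, and 2 to 6, with 2 without WT1 or any 1 of the libraries labelled KO. Between these settings the share of calls that were higher under the KO label moved by over 10 percentage points (48.6% over all genes, 38.1% by DESeq2 and 38.4% with the block, 64.0% without KO2 and 61.8% without KO3); for the lists the split turned from 4 higher and 7 lower to 3 higher and 1 lower without WT3 or KO2. RLE factors, no filter on low counts and a filter of 1 CPM moved none of these counts by over 1.5 times. Without 1 library, the log2 fold change of Fras1 lay between 7.90 and 10.2, that of Ngfr between 5.29 and 6.27 and that of Igfn1 between 4.29 and 8.33, the highest values being those without WT3, WT2 and WT1. The share of the summed group means that lay under the KO label was 99.67% to 100.0% for Fras1, 97.58% to 98.78% for Ngfr, 96.92% to 98.45% for AF067061 and 92.54% to 96.90% for Etl4 without 1 library. Genes of the same pattern numbered 17 with up to 5 counts under the WT label, 5 with at least 20 under the KO label and 21 at the members' own limits, a setting chosen after seeing the data. The cause of these shifts was not tested. Counts under 10 per library limit every ratio and all transcript shares.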

Other observations

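The reverse pattern, singled out after its values were seen, held genes of other kinds. Hfm1, a DNA helicase of meiotic crossing over, had 21, 40 and 20 counts in WT1, WT2 and WT3 and 0, 1 and 0 in KO1, KO2 and KO3. Syt8, a synaptotagmin, had 19, 11 and 28 against 0, 3 and 1, and Eya4, a transcriptional coactivator of ear development, had 18, 14 and 12 against 2, 0 and 1. Ccl2, the monocyte-attracting chemokine, had 47, 13 and 10 against 0, 0 and 0, with its highest count in WT1, where neutrophil markers were also highest.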
